A study of Mus musculus with 58 samples.

Results

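The mouse Serpinb9 cluster is a row of related genes on chromosome 13 for clade B serpins, which are proteins that block proteases inside cells. The 10 genes described here, of 22180 measured, are Serpinb9 and its relatives Serpinb9b, Serpinb9c, Serpinb9d, Serpinb9e, Serpinb9f and Serpinb9g, with the more distant clade members Serpinb1a, Serpinb6a and Serpinb8. They were listed by family name, and the family was chosen by the tumor and normal liver values of Serpinb9e, which parted the tissue labels of these arrays best. The tumor against normal values of Serpinb9e are therefore a description with no test, and the tests concern the 9 relatives, which were listed because a relative stood out in the same contrast. Serpinb8 lies on chromosome 1 in the RefSeq table of assembly GRCm38.p6, so it is a relative and not part of the chromosome 13 row.

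RNA was measured on 58 arrays, 29 of liver tumors and 29 of normal liver. All animals were adult mice of mixed descent from 129/Sv, C57BL/6 and FVB/NJ, and all of them, those that gave normal liver included, had been injected as newborns with adeno-associated virus (AAV), a gene transfer vector that can insert into the genome. The study asked whether such insertion contributed to liver cancer. The titles were read as 39 animals, of which 18 gave both tissues and 1 gave 2 tumors. Normal livers 18, 28 and 29 and tumor 17 carry no animal name and were each counted as a separate animal. The names of tumors 4 and 29 differ only by swapped digits and were also counted apart. Whether any of these arrays share an animal cannot be told from the titles. Normal livers 26 and 27 carry the same animal name with different marks, +/- and -/-, and were counted as separate animals, whereas arrays that share a name where only 1 is marked were counted as the same animal. Of the tumors 11 were labelled female and 17 male, 1 had no label, and of the normal livers 9 were labelled female and 20 male. Some titles carry a +/- or -/- mark whose gene is not named, and 1 carries GFP. The labels used here give neither the vector nor its dose for most animals, and no uninjected animal was analysed here.

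Serpins trap a protease by offering it a loop as bait, and the cut serpin then holds the enzyme in an inactive complex. Serpinb9 is the mouse counterpart of human SERPINB9, which blocks granzyme B, the protease that cytotoxic lymphocytes deliver into target cells. In mice the family has expanded by gene duplication, and duplicated genes of this kind can be alike enough for array probes to be shared between them.

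The sequence around the start site is shown for the relatives on either side of Serpinb9e and for Serpinb9, because the alike and unlike ones can be compared by eye. Each runs from 250 bases before to 50 bases after the RefSeq start site on the + strand of GRCm38.p6. Promoter windows were available for 9 of the 10 genes, all but Serpinb1a. Capitals mark TGACGT, a motif chosen after the sequences had been seen and searched on both strands.
Serpinb9e (chr13:33249358-33249657): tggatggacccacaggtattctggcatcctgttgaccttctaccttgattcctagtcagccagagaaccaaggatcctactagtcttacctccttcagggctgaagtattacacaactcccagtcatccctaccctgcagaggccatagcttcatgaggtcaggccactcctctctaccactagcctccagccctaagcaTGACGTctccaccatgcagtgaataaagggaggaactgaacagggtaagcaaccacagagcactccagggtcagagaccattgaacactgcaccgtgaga
Serpinb9f (chr13:33323827-33324126): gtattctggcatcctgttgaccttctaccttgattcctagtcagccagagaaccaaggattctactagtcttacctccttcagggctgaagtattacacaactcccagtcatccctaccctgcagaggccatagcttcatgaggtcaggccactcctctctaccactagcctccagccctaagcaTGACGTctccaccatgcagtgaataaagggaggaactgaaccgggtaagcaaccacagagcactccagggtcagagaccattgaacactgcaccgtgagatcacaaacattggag
Serpinb9g (chr13:33484540-33484839): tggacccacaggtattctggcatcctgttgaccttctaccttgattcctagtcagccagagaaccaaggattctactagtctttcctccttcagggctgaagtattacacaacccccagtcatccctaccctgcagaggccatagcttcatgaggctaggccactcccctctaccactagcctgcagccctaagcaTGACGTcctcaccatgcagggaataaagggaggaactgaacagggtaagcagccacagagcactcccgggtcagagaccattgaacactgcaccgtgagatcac
Serpinb9d (chr13:33192705-33193004): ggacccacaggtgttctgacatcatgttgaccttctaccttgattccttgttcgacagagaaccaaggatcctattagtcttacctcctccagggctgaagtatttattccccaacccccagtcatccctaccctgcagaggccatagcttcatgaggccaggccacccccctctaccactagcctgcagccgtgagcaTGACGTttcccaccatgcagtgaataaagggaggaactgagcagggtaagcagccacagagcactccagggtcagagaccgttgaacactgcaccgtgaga
Serpinb9 (chr13:33004291-33004590): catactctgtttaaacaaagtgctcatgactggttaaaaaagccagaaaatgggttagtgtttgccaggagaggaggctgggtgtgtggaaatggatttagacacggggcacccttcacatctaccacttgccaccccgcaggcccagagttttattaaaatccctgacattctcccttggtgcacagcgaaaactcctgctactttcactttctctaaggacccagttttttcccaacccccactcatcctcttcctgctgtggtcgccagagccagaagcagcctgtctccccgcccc

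In global alignments the promoter windows of Serpinb9d, Serpinb9e, Serpinb9f and Serpinb9g were identical at 82.9% to 93.4% of aligned positions, gaps counted. These 4 matched the other members with a window at 41.3% to 62.3%. Serpinb9e matched Serpinb9g at 93.4% and Serpinb9f at 89.8%. Where positions in gaps were left out the order turned, with Serpinb9f at 99.3% and Serpinb9g at 95.9%. The TGACGT match began at -50 from the start site in Serpinb9e and at -65 in Serpinb9f. Their windows were thus offset, and unmatched ends counted as gaps. The motif TGACGT was found in the windows of Serpinb9c, Serpinb9d, Serpinb9e, Serpinb9f and Serpinb9g, and in 7.51% of 32851 promoter windows of the same length. Other motifs were searched on both strands, with Serpinb1a left out for want of a window. TATAAA was in 0 members and 13.6% of windows. GAAA followed after any 2 letters by GAAA was in Serpinb9 and Serpinb6a and 3.44% of windows. TGANTCA was in Serpinb8 and 7.81% of windows. A motif was counted for a gene if any of its windows held it, while the shares are per single window. A match describes the letters and does not show a working site.

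Some arrays stood apart. Tumor 9 resembled the other arrays least (mean correlation 0.873), with a mean over 9 hepatocyte markers of 7.78, against 12.03 to 12.72 in normal livers. Its B and plasma cell markers averaged 12.04, where the normal livers reached 9.25. Tumor 24 had the highest value of Slco1b2 among tumors, an uptake transporter of mature hepatocytes, at 12.09, while normal liver 27 had the lowest among normal livers, at 5.81. Normal liver 27 also had the highest normal value of Afp, the fetal liver protein alpha-fetoprotein, at 10.09, and a Cyp11a1 value of 11.39 where the other normal livers reached 6.97. In tumor 1 Slco1b2 stood at 12.05 and Afp at 7.04, like normal liver. The tissue labels of normal liver 27 and tumors 24 and 1 are in doubt for these few values alone. Whether the labels are wrong was not tested, and they were kept as given. Tumor 20 also had Afp and Cyp11a1 like normal liver, at 7.41 and 6.59, with Slco1b2 at 10.14. No alternative left out tumor 20 on its own. In 7 arrays, 4 tumors and 3 normal livers, sex-linked genes went against the gender label. In bulk tissue, fewer cells of a type and less RNA per cell cannot be told apart.

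Serpinb9e was high in nearly every tumor. Its log2 values had a lowest, median and highest of 6.00, 9.22 and 11.93 in the 29 tumors, against 5.27, 5.85 and 6.79 in the 29 normal livers. The groups overlapped through a single array, tumor 24 at 6.00, one of those whose tissue label is in doubt, and the other 28 tumors lay above the highest normal liver. The highest normal value was that of normal liver 27. Means were 9.26 ± 1.43 in tumors and 5.88 ± 0.37 in normal liver (SD, n = 29 each), and the fitted difference was 3.40 on the log2 scale with a standard error (SE) of 0.25, or 10.6-fold. Serpinb9e was the only gene of 22180, or 0.00451%, with at least 28 tumors above all normal livers, the contrast by which it was chosen. Serpinb9e was higher in the tumor than in the normal liver of the same animal in 18 of 18 pairs, by 1.37 to 6.13.

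The relatives followed in direction but not in size. Of the 9, 8 were higher in tumors, 0 were lower, and Serpinb9g did not pass (limma with the animal as a random block, Benjamini-Hochberg adjusted p under 0.05 over all genes). Among all 22180 genes 17.9% were called higher and 14.3% lower at the same threshold. The median log2 change was 0.55 over the 9 relatives and -0.02 over all genes. A log2 change of at least 1 was reached by Serpinb9f and Serpinb1a, and 1.03% of all genes were called higher at that size. The plot of values by array shows that the spread of Serpinb9e among tumors was wider than that of any relative.

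**Figure D1:**
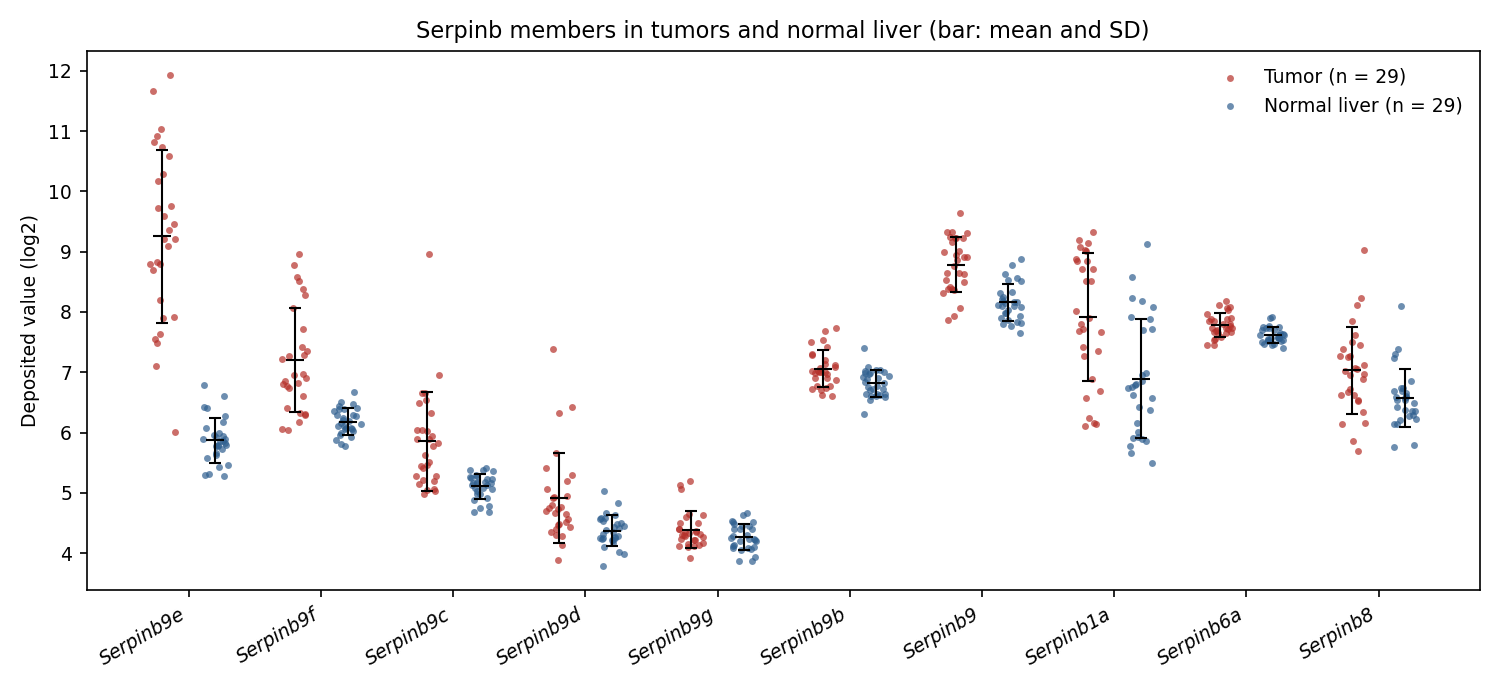
Deposited log2 values of the 10 genes on each array, tumors (red) left of normal liver (blue), with black bars for the mean and SD of 29 arrays each. Serpinb9e tumors centre on 9.26 against 5.88 in normal liver, with 1 tumor in the normal range, while Serpinb9g averaged 4.39 in tumors and 4.27 in normal liver. Heights of different genes are not comparable, since each has its own probes.

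Serpinb9f came nearest to Serpinb9e. Its lowest, median and highest values were 6.04, 6.95 and 8.96 in tumors, against 5.77, 6.16 and 6.66 in normal liver. The groups overlapped in their lower part, and 21 of 29 tumors exceeded the highest normal liver. All 9 relatives had at least 1 tumor above the highest normal liver, as had 61.2% of all genes. At least 15 were found for 1.59% of all genes and, among the relatives, for Serpinb9f and Serpinb9c. The mean was 7.20 ± 0.86 in tumors and 6.18 ± 0.22 in normal liver (SD, n = 29 each), a log2 change of 1.03 (SE 0.15, limma adjusted p = 3.2e-07), or 2.04-fold. The tumor was higher in 17 of 18 pairs. Without normal liver 27, 22 tumors exceeded the highest normal liver.

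Serpinb9c, on the other side of Serpinb9d in the row, had 20 of 29 tumors above the highest normal liver. Its tumors ran from 4.98 through a median of 5.78 to 8.97, against 4.69, 5.16 and 5.41 in normal liver. The top value was that of tumor 5 alone, 8.97, and the next tumor stood at 6.96. The log2 change was 0.75 (SE 0.15, limma adjusted p = 4.2e-05), with 15 of 18 pairs higher in the tumor. At least 20 tumors above all normal livers were found for 0.446% of all genes.

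Serpinb9d lies between Serpinb9c and Serpinb9e, and fewer of its tumors stood out. Values ran from 3.88 through 4.72 to 7.39 in tumors and from 3.79 through 4.35 to 5.02 in normal liver. The groups overlapped over most of their range, with 8 tumors above. The log2 change was 0.55 (SE 0.14, limma adjusted p = 0.00126), but the median paired difference was 0.29 and 14 of 18 pairs were higher. Tumors 14, 5 and 2 held the top values, 7.39, 6.42 and 6.33.

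Serpinb9g, whose start region is also close to that of Serpinb9e, did not pass the test. Its lowest, median and highest values were 3.92, 4.32 and 5.20 in tumors, against 3.86, 4.24 and 4.67 in normal liver. The groups overlapped almost entirely, with 3 tumors above. The log2 change was 0.12 (SE 0.066, limma adjusted p = 0.143), and the tumor was higher in 12 of 18 pairs. The tumors above the normal range were 29, 11 and 9, at 5.20, 5.14 and 5.06. Serpinb9g, Serpinb9d and Serpinb9c averaged 4.33, 4.64 and 5.48 over all arrays, below the array medians of 6.72 to 7.15. How well such dim clusters show a change was not tested.

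Serpinb9 itself, the granzyme B inhibitor of the family, was moderately higher. Its values were 7.87, 8.86 and 9.64 in tumors, against 7.65, 8.12 and 8.88 in normal liver, as lowest, median and highest. The groups overlapped, and 14 tumors lay above. The log2 change was 0.62 (SE 0.10, limma adjusted p = 8.3e-07), or 1.54-fold, and 15 of 18 pairs were higher in the tumor. Serpinb9b, which blocks granzyme M in mice, changed by 0.24 (SE 0.066, limma adjusted p = 0.00275), with 5 tumors above the highest normal liver. A dimmer second probe cluster of Serpinb9b gave 4.70 ± 0.17 in tumors and 4.77 ± 0.19 in normal liver (SD, n = 29 each), with 0 tumors above. The mean of both clusters gave a log2 change of 0.09 (limma adjusted p = 0.139), so the call for Serpinb9b was lost when both clusters were averaged.

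The more distant members were higher as well, with wide overlap. Serpinb1a, an inhibitor of neutrophil elastase and cathepsin G, had values of 6.10, 7.90 and 9.33 in tumors, against 5.49, 6.76 and 9.12 in normal liver. Only 3 tumors lay above the highest normal liver, although the log2 change of 1.02 (SE 0.24, limma adjusted p = 0.000715) was about that of Serpinb9f. Its tumors exceeded their own normal liver in 16 of 18 pairs. Serpinb6a, an inhibitor of cathepsin G, changed by 0.17 (SE 0.043, limma adjusted p = 0.00195). Serpinb8, whose human counterpart blocks furin, changed by 0.46 (SE 0.15, limma adjusted p = 0.0115), with 3 tumors above. A cluster shared by Serpinb6a and 1110046J04Rik was not used to name a gene.

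**Figure D2:**
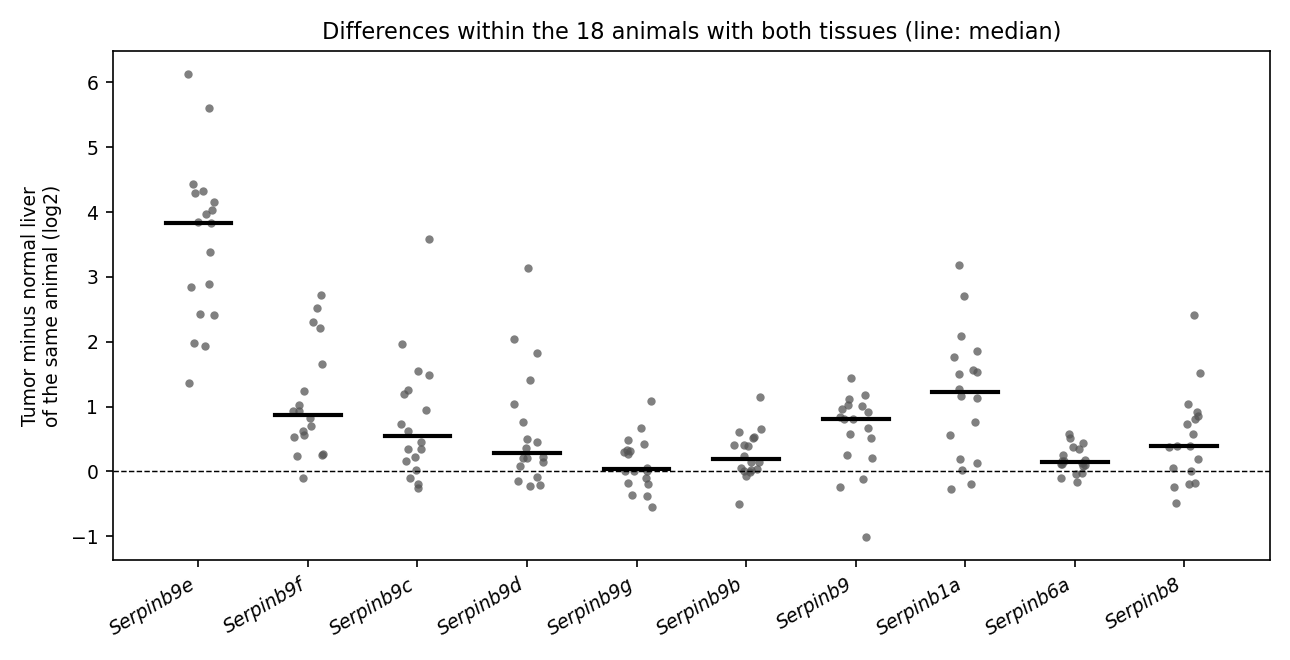
Tumor minus normal liver of the same animal on the log2 scale for the 10 genes, with 1 point for each of 18 animals and a line at the median. All Serpinb9e points lie above 0, with a median of 3.83, while the median of Serpinb9g is 0.03.

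The flanking genes did not share the direction of the row. Of 19 measured non-serpin genes among the 10 on each side of the row, 2 were higher in tumors and 7 lower, with a median log2 change of -0.02. Among all genes 17.9% were higher and 14.3% lower. Foxq1, a forkhead transcription factor, fell by 1.40 (SE 0.19, limma adjusted p = 2.9e-08). Slc22a23, a transporter-like protein, fell by 0.80, and Pxdc1 fell by 0.64, both called. Tubb2a, a beta tubulin, rose by 0.60. Of 15 measured other Serpinb genes 2 were higher and 0 lower, against 17.9% and 14.3% of all genes. At an unadjusted limma p under 0.05 only, Serpinb1c was higher (log2 change 0.16) and Serpinb6c lower (-0.13). The higher ones were Serpinb6b, between Serpinb1c and Serpinb9 in the row, and Serpinb1b, between Serpinb9b and Serpinb9c.

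**Figure D3:**
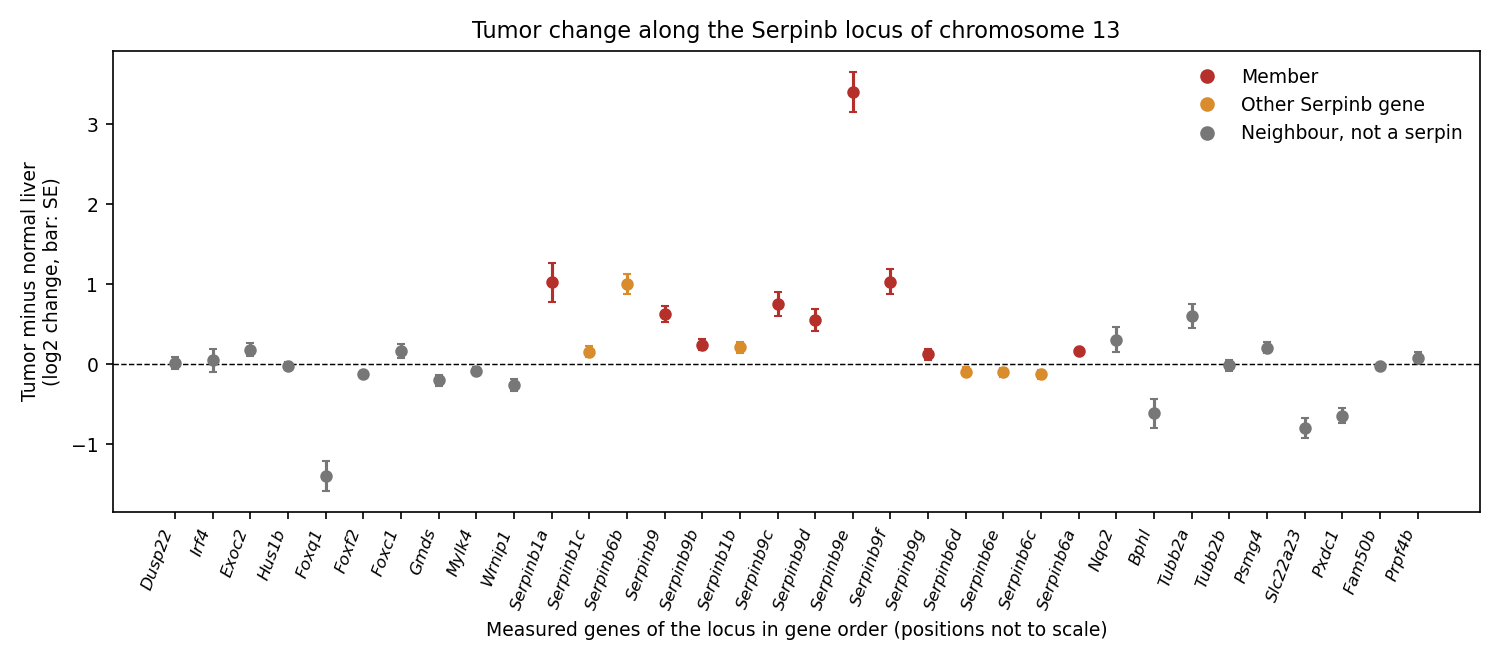
Log2 change between tumors and normal liver, with SE bars, for the measured genes of the row and its neighbours in RefSeq gene order, which is not to scale. Serpinb9e stands at 3.40, next to Serpinb9d at 0.55 and Serpinb9f at 1.03, and most non-serpin neighbours lie near or below 0.

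Serpinb6b had values of 6.88, 8.31 and 9.91 in tumors, against 6.78, 7.24 and 8.47 in normal liver, as lowest, median and highest. The groups overlapped, with 11 tumors above. The log2 change was 1.00 (SE 0.13, limma adjusted p = 8.3e-09), about that of Serpinb9f. Serpinb1b changed by 0.21 (limma adjusted p = 0.00915). Serpinb1c, Serpinb6c, Serpinb6d and Serpinb6e of the same row did not pass.

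Proteases and cytotoxic granule genes did not move together. Of 27 measured, 3 were higher and 3 lower in tumors, against 17.9% and 14.3% of all genes. Casp1, the protease that matures interleukin precursors, rose by 1.32 (SE 0.17, limma adjusted p = 1.3e-08), and the lysosomal proteases Ctsl and Ctsb rose by 0.58 and 0.22. The death receptor gene Fas fell by 0.42, Prf1, the pore former of cytotoxic granules, fell by 0.22 and Gzmn fell by 0.18. Gzmb, the protease that Serpinb9 blocks, averaged 6.74 ± 0.43 in tumors and 6.78 ± 0.46 in normal liver (SD, n = 29 each; log2 change -0.06, SE 0.11, limma adjusted p = 0.723).

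Markers of blood cells that could carry these serpins are given beside the members. For comparison, 17.9% of all genes were called higher and 14.3% lower. Of 13 T and NK cell markers 2 were higher in tumors and 0 lower, and their mean level ran from 6.38 to 9.52 in tumors and from 6.56 to 7.72 in normal liver. Of 12 neutrophil markers 0 passed (6.45 to 10.53 in tumors, 6.42 to 10.67 in normal liver), and likewise 0 of 6 B and plasma cell markers and 0 of 7 mast cell and basophil markers, with 0, 1 and 0 markers at an unadjusted limma p under 0.05. Of 15 macrophage and dendritic cell markers 3 were higher and 5 lower. The lower ones were markers of Kupffer cells, the resident macrophages of the liver: Vsig4 fell by 2.37, Cd5l fell by 2.12, Clec4f fell by 2.06, Timd4 fell by 1.20 and Marco fell by 1.10. Cd14 rose by 1.29, Itgax by 0.97 and Cd68 by 0.47. Of 9 hepatocyte markers 0 were higher and 3 lower. The part of these cells in the members' levels was not tested. Without tumors 9 and 24 and normal liver 27 together, 8 of 9 relatives were still called higher, and the Serpinb9e difference was 3.53. Without tumors 1 and 24 and normal liver 27 these values were 8 of 9 and 3.59.

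Tumor by tumor, the relatives split. The number of the 9 relatives above their highest normal liver was 0 in 2 tumors, 1 in 3, 2 in 8, 3 in 8, 4 in 2, 5 in 4 and 6 in 2. Serpinb9e and Serpinb9f were both above in 21 tumors, Serpinb9e without Serpinb9f in 7, and Serpinb9f without Serpinb9e in 0. Serpinb9c and Serpinb9f were both above in 17, Serpinb9c alone of the pair in 3 and Serpinb9f alone in 4. Tumor 24 had 0 of the 10 genes above, and tumor 1 had Serpinb9e alone, at 7.90. These tumors had Slco1b2 at 12.09 and 12.05, where the highest normal liver stood at 12.08, and Afp at 6.91 and 7.04. The tumor pair of 1 animal, tumors 22 and 26, had similar Serpinb9e values of 8.83 and 9.09.

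**Figure D4:**
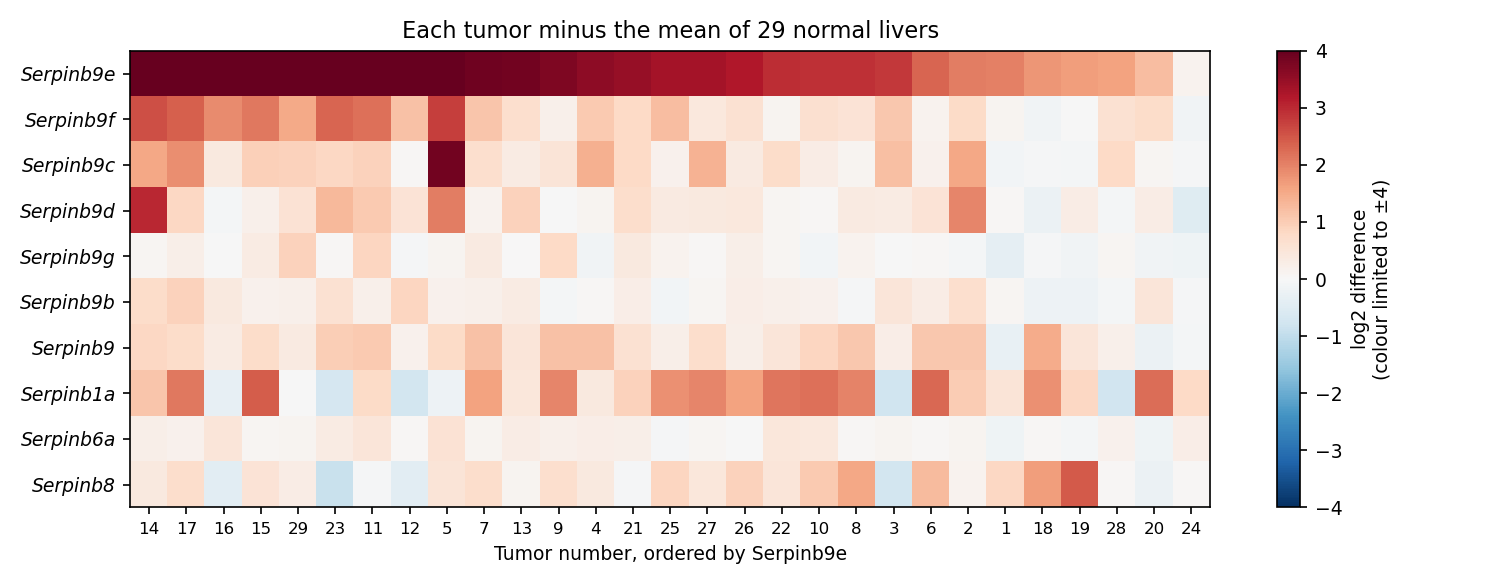
Each of 29 tumors (columns, ordered by Serpinb9e) minus the mean of 29 normal livers for the 10 genes, as log2 difference in colour, limited to 4 either way. Serpinb9f is high mainly in the left part, where Serpinb9e is highest, Serpinb9c is highest in tumor 5 and Serpinb9d in tumor 14, and tumor 24 at the right is near 0 for Serpinb9e.

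Within tumors Serpinb9f tracked Serpinb9e closely. Over 28 animals with tumors, with both tumors of 1 animal averaged, Pearson's r was 0.83 and Spearman's rho 0.82. The permutation p of 1e-05 was the smallest that 100000 resamples can give, and 0.00013 after adjustment over 13 relations. Without the 2 animals farthest from the Serpinb9e median r was 0.79. In a limma regression on Serpinb9e over all other 22179 genes, Serpinb9f was the only gene called (slope 0.49 per log2 unit, SE 0.063, limma adjusted p = 0.000202), or 0.00451% of genes. This regression was added after the data had been seen.

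The other relatives followed more loosely, and which of them passed depended on the animals included. Serpinb9b had r of 0.50, Serpinb9g and Serpinb9d 0.49, Serpinb9c 0.45 and Serpinb6a 0.43, with permutation p-values adjusted over 13 relations of 0.0279, 0.0279, 0.0279, 0.0393 and 0.0487. With Serpinb9f, 6 of 9 relatives passed for both r and rho, though 1 of 9 passed over all genes, and 769 genes, 3.47%, had an unadjusted p under 0.05 with a positive slope. Without the 2 farthest animals r was 0.41 for Serpinb9b, 0.51 for Serpinb9g, 0.25 for Serpinb9d, 0.38 for Serpinb9c and 0.54 for Serpinb6a, and 3 relatives passed. Without tumor 24 the relations of Serpinb9c and Serpinb9d no longer passed, both with an adjusted permutation p of 0.0577. That of Serpinb6a no longer passed without tumor 9, with an adjusted permutation p of 0.0547. Without tumors 1 and 24, both of doubtful tissue label, Serpinb9f alone passed, with r of 0.81 (adjusted permutation p = 0.00026). Without the 4 tumors against the gender label 2 relatives passed, Serpinb9f with r of 0.80 and Serpinb9g with r of 0.53, while Serpinb6a lay at the threshold (adjusted permutation p = 0.0515).

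Serpinb9, Serpinb1a and Serpinb8 did not pass, with r of 0.29, -0.12 and -0.27. Neither did Afp (r of 0.36), the noncoding RNA Rian (0.25), the proliferation marker Mki67 (-0.05) or Slco1b2 (-0.41, adjusted permutation p = 0.0572). In tumors labelled male alone, 1 relative passed. By r over the 29 tumors, the genes most like Serpinb9e among all measured were Serpinb9f (0.82), Bhlha15 (0.66), Nek3 (0.65), Cd24a (0.64) and Derl3 (0.62). Serpinb9b ranked 112, Serpinb9d 147, Serpinb9g 149 and Serpinb9c 281.

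In normal liver no relation with Serpinb9e passed. Over 29 animals 0 of 9 relations passed, with 0 of 9 at an unadjusted p under 0.05 for r. For rho, Serpinb9c alone was under it (rho of 0.40, unadjusted permutation p = 0.0334, adjusted 0.301). Serpinb9f had r of 0.28 (permutation p adjusted over 9 relations = 0.658) and Serpinb9c 0.34 (0.626). Without the 2 farthest animals r for Serpinb9f was -0.01. Serpinb9e spanned 5.27 to 6.79 in normal liver, a narrower range than in tumors, and whether the relation differs between tissues was not tested.

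**Figure D5:**
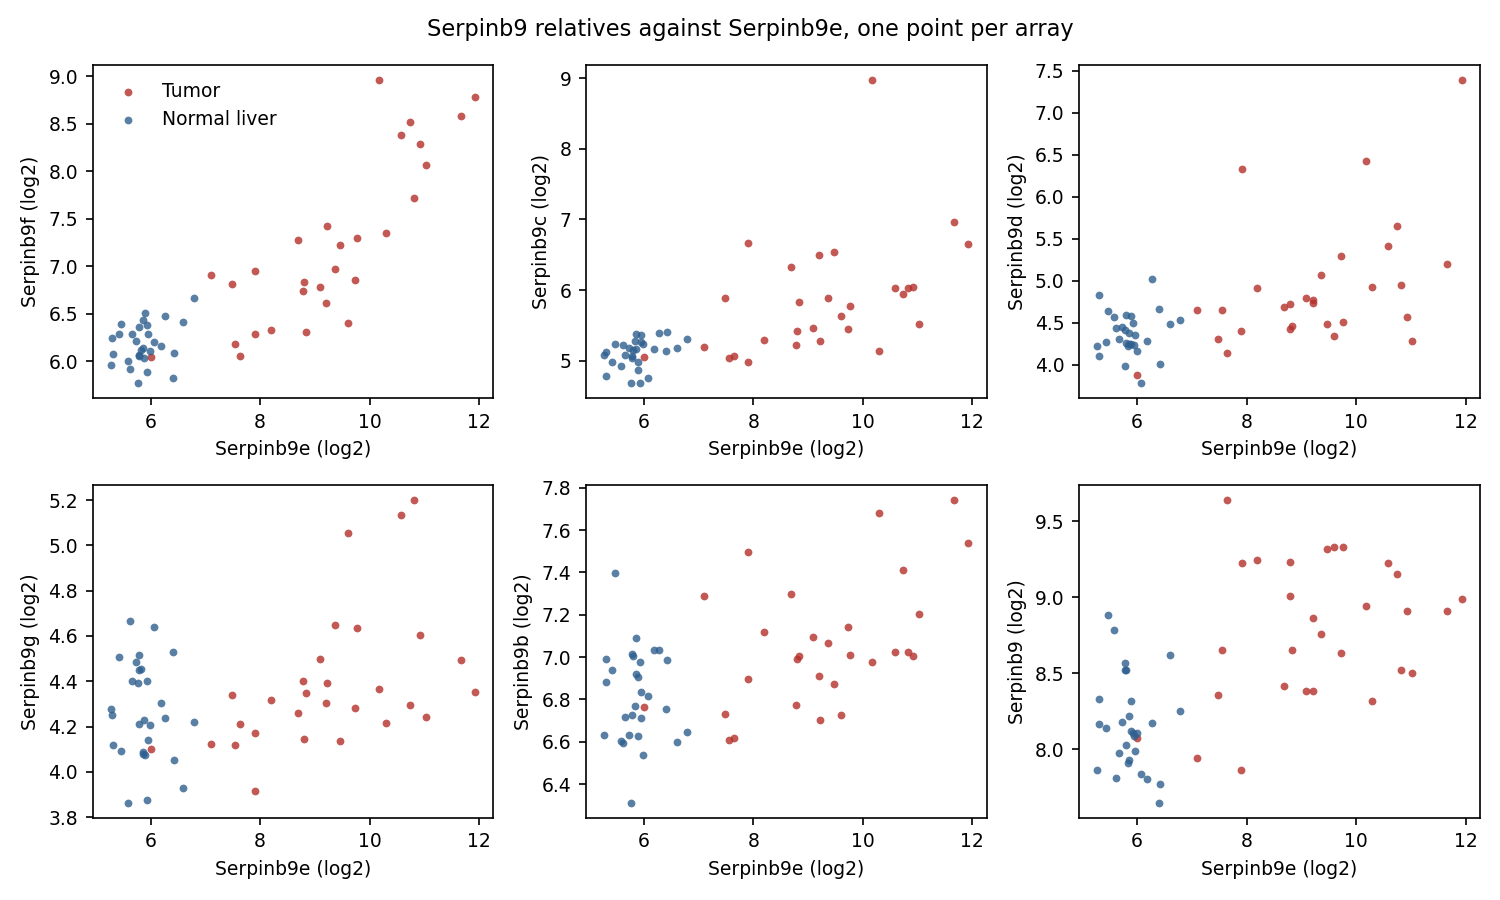
Serpinb9 relatives against Serpinb9e, 1 point per array, with tumors in red and normal liver in blue, all on the log2 scale with an axis range of its own per panel. Serpinb9f climbs with Serpinb9e among tumors (r of 0.83 over 28 animals), while Serpinb9g stays mostly within the normal range.

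Whether probes cross-react between these genes was not tested, because probe sequences were not used here. Each of the 10 genes was read from a cluster of its own that carries a single symbol, which does not show that its probes are specific. High Serpinb9e did not always come with high Serpinb9d or Serpinb9g. In tumor 16, Serpinb9e stood at 11.03, Serpinb9d at 4.28 and Serpinb9g at 4.24, both near their normal means of 4.37 and 4.27. Serpinb9f in the same tumor stood at 8.06, above its normal range. In tumor 9, Serpinb9e stood at 9.60 while Serpinb9f was at 6.40, within its normal range. The normal liver of the same animal had Serpinb9f at 5.77, so within the pair Serpinb9f was higher in the tumor by 0.63. Tumor 9 is the array that resembled the others least, with low hepatocyte markers. These tumors are picked examples and do not test cross-reaction.

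Sex did not give a called difference. Female minus male, 0 of 10 genes passed in tumors, in normal liver and for the difference in tumor change between sexes (limma), with 6, 0 and 6 genes at an unadjusted p under 0.05. At the adjusted threshold 0.0225%, 0.0496% and 0% of all genes were called, and the share of all genes at the unadjusted one was not counted. The fitted tumor changes in females and males were 2.57 and 3.87 for Serpinb9e, and 0.24 and 0.83 for Serpinb9. They were 0.18 and 1.11 for Serpinb9c, and 0.07 and 0.82 for Serpinb9d. Those of Serpinb9b (0.23 and 0.24) and Serpinb6a (0.15 and 0.17) were alike. Whether each relative was higher within 1 sex was not tested. Serpinb9e averaged 8.39 ± 1.43 in 11 tumors labelled female and 9.73 ± 1.19 in 17 labelled male (SD), a log2 difference of -1.35 (SE 0.35, limma adjusted p = 0.364). Serpinb9c differed by -0.79 and Serpinb9d by -0.67 in the same direction (limma adjusted p = 0.364 and 0.376). In normal liver Serpinb9e averaged 5.88 ± 0.38 in 9 females and 5.87 ± 0.38 in 20 males (SD). Without the arrays against the gender label the Serpinb9e difference between tumors was -1.05 (limma adjusted p = 0.425).

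The genotype marks gave no call either. Among normal male livers, 4 marked -/- and 5 marked +/-, 0 of 10 genes passed, with 0% of all genes called and 1 member at an unadjusted p under 0.05. That member was Serpinb9e, at 6.08 ± 0.50 in -/- and 5.60 ± 0.24 in +/- livers (SD), a log2 difference of 0.48 (SE 0.21, limma adjusted p = 0.745). Normal liver 27 is one of the -/- livers and normal liver 26, with the same animal name, one of the +/- livers. Normal liver 15, also +/-, is one of the arrays against the gender label.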

How the data were processed

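Affymetrix Mouse Gene 2.0 ST arrays, named so by the probe table, measured total RNA extracted with the miRNeasy kit per the labels' protocols. The authors deposited log2 values, one per transcript cluster and array, and the submitters' processing notes name Affymetrix Expression Console. The software version, the summarization method and the build are not given in the sources at hand. Values ran from 2.91 to 14.08 with array medians from 6.72 to 7.15. No scanner files were used, so background and scan batches were not examined, and the number of arrays limits the precision.

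Of 41345 clusters, 23521 carried 1 symbol, 1814 several and 16010 none. A gene took its brightest cluster with 1 symbol, giving 22180 genes. Groups came from the disease status label and animals from the titles, which pair 18 tumors and normal livers. Replicate numbers only name arrays. The members and lists were chosen with earlier results of these data known. All 10 members are named, with those of the other Serpinb genes, proteases and neighbours that passed at a log2 change of 1, up to 3 more of smallest adjusted p from each of these lists, and the 5 genes most like Serpinb9e. Other genes named were chosen after their values were seen.

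Tests used R 4.3.3 with limma 3.58.1 and statmod 1.5.0 (lmFit, animal as random block with correlation 0.145, eBayes with trend, Benjamini-Hochberg over all genes, threshold 0.05). Marks were fitted without a block. Correlations used two-sided permutation tests of 100000 resamples in Python 3.11.15. Promoters were aligned with Biopython 1.88 (match 1, mismatch -1, gap opening -3, extension -0.5). Fits were tested on simulated data. Alternatives covered the block, scaling, brightness, cluster choice, sex and arrays left out.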

Additional observations from a re-analysis of the deposited data

Results flagged for a closer look

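Each of the 10 genes was checked for a sample far from the others within groups of normal livers. The groups were 4 male livers marked -/-, 5 male livers marked +/- and 9 livers labelled female. Of these 30 checks of a gene in a group, 1 found such a sample, and chance alone gives about 1 in 20. Tumors were not checked in this way. Among the 5 normal male livers marked +/-, the Serpinb9b value of normal liver 26 was the lowest, at 6.60, and the nearest other stood at 6.90.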

How the results depend on the processing

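The count of 8 relatives higher in tumors was also 8 with no replicate block, in the 18 pairs with each animal a fixed replicate block, after median centring or quantile normalization, with array weights, without a trend, with sex as a covariate, and without tumor 9, tumor 24, normal liver 27, tumors 1 and 24 with normal liver 27, or the 7 arrays against the gender label. It was 7 with the mean of a gene's clusters. It was 3 in animals without a pair, where Serpinb9, Serpinb9c and Serpinb9f passed, and 3 among the brighter genes, where only 3 relatives were tested. Serpinb9e differed by 3.12 to 3.59 across the alternatives. Of 9 relatives, 6 correlated with Serpinb9e in tumors, against 3 without the 2 farthest animals, 1 in males alone, 2 without the 4 tumors against the gender label, 1 without tumors 1 and 24 and 1 with limma over all genes. It was 5 without tumor 9, 5 with the mean of clusters, both losing Serpinb6a (adjusted permutation p = 0.0547 and 0.0502), and 4 without tumor 24. The cause was not tested. Slco1b2 passed without those 4 tumors (r of -0.57, adjusted permutation p = 0.026). Sex and mark counts stayed at 0 under each alternative run, leaving out each marked liver included (0 to 0). No direction of a called value reversed. The labels' mismatches with sex-linked genes, the unnamed marks and the unstated vectors limit the comparisons.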
